A study of Mus musculus with 16 samples.

Results

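A set of 10 genes of bone morphogenetic protein (BMP) signalling was described: the ligands Bmp4 and Bmp7, the receptor Bmpr1a, the antagonists Nog and Chrd, the inhibitory Smad gene Smad6 and the target genes Id1, Id2, Id3 and Id4. They were chosen by name, as genes known from the adult neural stem cell niche. All 10 were measured, each by 1 probe set, among 19938 genes. RNA came from the subependymal zone (SEZ), a thin layer along the lateral ventricle that houses adult neural stem cells, and from the olfactory bulb (OB), where their neuronal progeny settle. Each tissue was represented by 3 Brg1 conditional knockout (cKO) and 5 control arrays. All mice were 2.5 months old, on a mixed C57BL/6 and CD1 background. Samples called cKO had the genotype GlastCreERT2/Brg1fl/fl and controls GlastCreERT2/Brg1fl/+, so the controls carried the recombinase and 1 floxed copy as well. SEZ control replicate 5 alone was labelled GlastCreERT2/Brg1+/+. The recombinase is driven by the Glast locus (Slc1a3), which is active in astrocytes and stem cells, so that bulk tissue also holds cells outside this lineage. The labels list no treatment, and they do not say when recombination was started. The design allows 2 comparisons of this pathway: between SEZ and OB samples, and between cKO samples, with both Brg1 copies floxed, and controls. Brg1 is a motor subunit of SWI/SNF complexes, which move nucleosomes. Since all controls but SEZ control 5 carried 1 floxed copy, the second comparison is not between deletion and no deletion.

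BMP ligands bind complexes of type I and type II receptors, Bmpr1a being a type I receptor, and the receptors phosphorylate Smad proteins that enter the nucleus with Smad4. Noggin (Nog) and chordin (Chrd) are secreted proteins that hold the ligands away from their receptors, and Smad6 blocks the signal inside the cell. Id genes are among the fastest targets. Id proteins have a helix-loop-helix but no DNA-binding region, and they sequester the E proteins that proneural factors need. In the adult niche, BMP signalling is known to favour glial fate and quiescence, and noggin from ependymal cells to permit neurogenesis.

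RefSeq start-site windows (250 bases before to 50 after a start, build GRCm38.p6) were available for 7 of the 10 members, and those of Id1, Bmp7 and Nog were not used here. Those of 4 members are shown, because Id2, Id3 and Id4 are the Id genes with a window, and because Smad6 carries the longest of the searched motifs. Capitals mark matches, on either strand, to GGCGCC, a GC-rich letter sequence that BMP Smads are known to bind, to GTCTAGAC, the palindromic Smad binding element, or to CAGAC, the short Smad box. The windows are chr12:25096043-25096342 on the minus strand for Id2, chr4:136143572-136143871 on the plus strand for Id3, chr13:48260866-48261165 on the plus strand for Id4 and chr9:64022010-64022309 on the minus strand for Smad6.
Id2 promoter: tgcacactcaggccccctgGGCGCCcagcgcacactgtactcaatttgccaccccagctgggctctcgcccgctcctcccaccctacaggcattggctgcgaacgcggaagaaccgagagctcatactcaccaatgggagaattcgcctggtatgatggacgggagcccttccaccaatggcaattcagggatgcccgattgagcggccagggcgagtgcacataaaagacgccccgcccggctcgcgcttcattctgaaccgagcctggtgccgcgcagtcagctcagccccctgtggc
Id3 promoter: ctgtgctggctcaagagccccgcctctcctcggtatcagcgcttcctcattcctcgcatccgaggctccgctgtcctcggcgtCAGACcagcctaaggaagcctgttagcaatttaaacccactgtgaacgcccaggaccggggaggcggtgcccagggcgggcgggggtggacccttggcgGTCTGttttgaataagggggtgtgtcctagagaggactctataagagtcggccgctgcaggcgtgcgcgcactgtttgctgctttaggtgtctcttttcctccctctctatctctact
Id4 promoter: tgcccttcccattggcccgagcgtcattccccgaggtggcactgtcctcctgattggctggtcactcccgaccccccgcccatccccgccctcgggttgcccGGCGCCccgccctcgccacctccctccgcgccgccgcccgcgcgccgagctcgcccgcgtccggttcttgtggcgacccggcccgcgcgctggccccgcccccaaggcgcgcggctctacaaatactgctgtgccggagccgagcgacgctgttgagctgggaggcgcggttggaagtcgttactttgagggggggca
Smad6 promoter: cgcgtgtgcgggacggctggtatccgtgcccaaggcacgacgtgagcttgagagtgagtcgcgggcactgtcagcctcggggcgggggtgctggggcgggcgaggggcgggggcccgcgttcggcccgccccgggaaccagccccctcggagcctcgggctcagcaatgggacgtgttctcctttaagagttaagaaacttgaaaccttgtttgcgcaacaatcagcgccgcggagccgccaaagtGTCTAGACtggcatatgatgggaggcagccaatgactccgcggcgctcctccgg
GGCGCC occurred once each in the windows of Id2, Id4, Bmpr1a and Chrd, 4 of the 7, against 11.9% of 32851 windows of the same length. Its first base lay at -231 from the start in Id2 and at -148 in Id4. GTCTAGAC occurred in Smad6 at -4, spanning the start, and in 0.213% of all windows. CAGAC occurred 2 times in Id3 and once in Chrd, and it was present in 49.6% of all windows. None of these matches overlapped another. Bmp4 had no match in its window. The members' windows were rich in G and C, with 60% in Id3 to 79.3% in Bmpr1a, against a median of 52.7% over all windows, and the shares were not matched on this composition. A match describes letters only, and no binding was measured here.

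Values below are log2 expression, as mean ± SD over the arrays of a group. Array medians lay between 7.45 and 7.65. Of the markers of striatal projection neurons, which lie next to the SEZ, 8 of 8 were lower in OB than in SEZ controls. Their mean was 12.71 to 12.92 in SEZ controls, 12.73 to 12.93 in SEZ cKO samples and 8.80 to 8.92 in OB controls. The SEZ samples thus held striatal tissue besides the niche, and its share was not measured. Of the markers of bulb granule and periglomerular neurons, 10 of 10 were higher in OB controls. Of 10 ependymal markers, 8 were lower in OB and 2 higher. Smarca4, the gene of Brg1, lay between 10.95 and 11.09 on all OB arrays and between 10.62 and 10.78 on all SEZ arrays, with cKO minus control differences of 0.00 and -0.01. The labels do not say whether its probe set covers the floxed part. Several arrays stood apart. Xist, which silences 1 X chromosome in female cells, was at 12.40 in SEZ cKO replicate 1 and at 6.08 in OB cKO replicate 1. OB and SEZ arrays of the same genotype and number lay on the same side of its midpoint in the other 7 of 8 cases. Xist was at 11.82 or above in OB cKO 2, SEZ cKO 1 and 2 and controls 1 and 4 of both tissues. On the other arrays it was at most 6.80. By Xist, each group thus held both sexes, in unequal shares, and sex was not in the model. Slc1a3 was at 8.16 and 8.85 in the SEZ and OB cKO replicates 3, against at least 11.16 on the other arrays. Slc17a7, a glutamate transporter of cortical neurons, measured 10.58 and 11.06 in SEZ controls 2 and 4, against at most 8.98 in the other SEZ samples.

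More members differed between the tissues than between the genotypes. In controls, 6 of 10 members passed the test between OB and SEZ (limma, Benjamini-Hochberg adjusted p under 0.05 over 19938 genes), 3 higher and 3 lower in OB. By comparison, 27.5% of all genes passed, 12.6% higher and 14.9% lower. At an unadjusted p under 0.05, 7 members stood against 35.8% of all genes. Among the Id genes, Id4, Id3 and Id1 were lower in OB, and Id2 was higher. Nog and Bmp4 were the others that were higher in OB. In cKO samples, which are different arrays, 4 members passed, where 23.1% of all genes did (10% higher and 13.1% lower in OB): Id4 and Id3 lower, and Id2 and Nog higher in OB. At an unadjusted p under 0.05, 6 members stood against 32.8% of all genes. The median absolute difference over the 10 members was 0.42 in controls and 0.38 in cKO, and over all genes it was 0.12 and 0.15. The members were picked as niche genes and are few, so these figures describe them only. In bulk tissue, fewer cells of a type and less RNA per cell cannot be told apart.

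**Figure D1:**
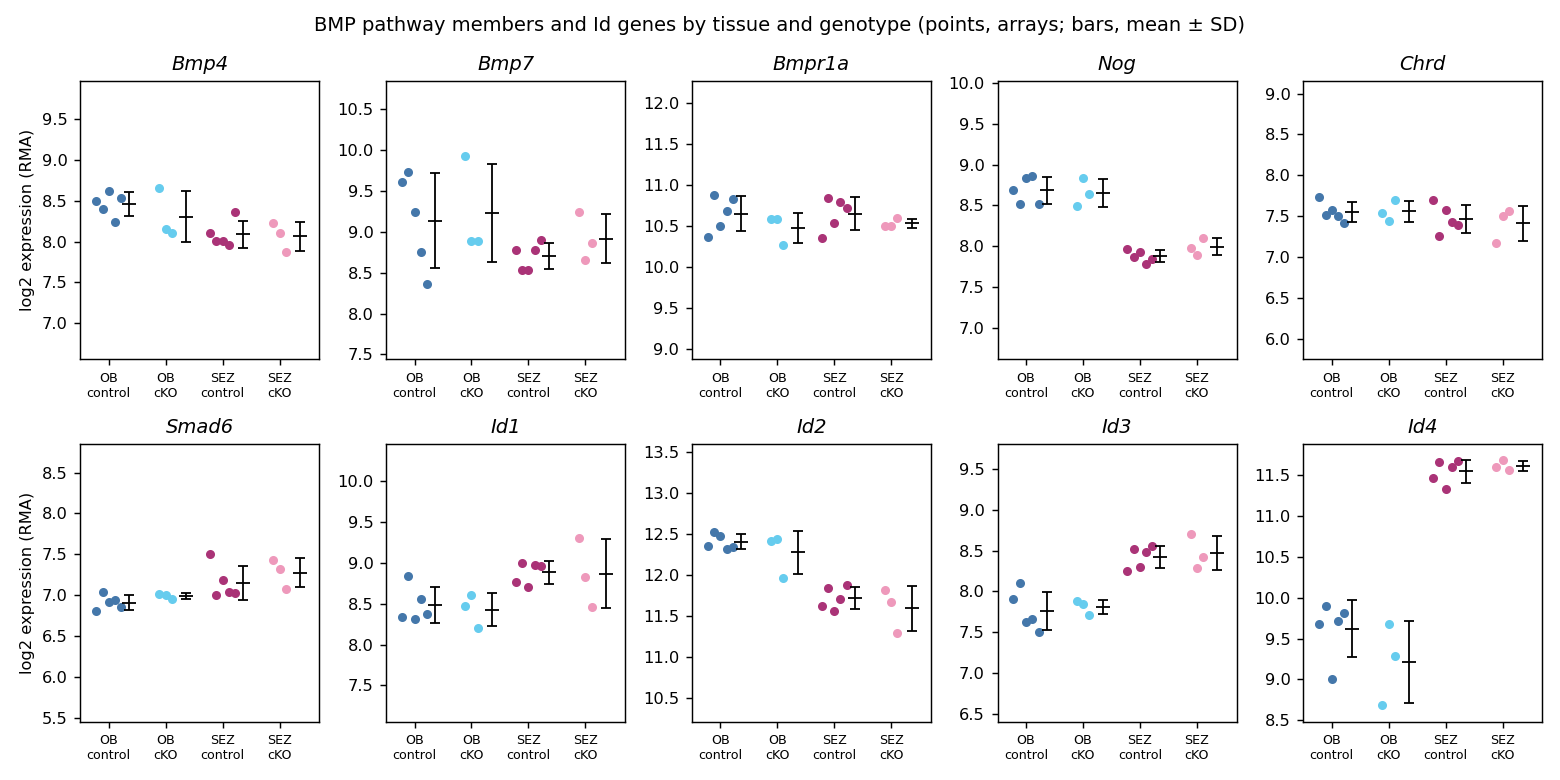
Log2 expression of the 10 members on each of the 16 arrays, by tissue and genotype; points are arrays, horizontal bars with whiskers are mean ± SD, and every panel spans the same height on the log2 axis. Id4 separates OB from SEZ most, Id2 and Nog are higher on every OB array than on any SEZ array, and the cKO and control points of a tissue overlap in all panels.

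Id4 (probe set 10404975), an Id gene of astrocytes and neural precursors, showed the largest tissue difference among the members. In OB controls 1 to 5 it was at 9.67, 9.90, 9.01, 9.72 and 9.81, and in OB cKO samples 1 to 3 at 8.69, 9.68 and 9.29. In SEZ controls 1 to 5 it was at 11.46, 11.66, 11.33, 11.60 and 11.67, and in SEZ cKO samples 1 to 3 at 11.59, 11.68 and 11.56. Every SEZ array lay above every OB array, and the OB values were the more scattered. In controls, Id4 was at 9.62 ± 0.35 (SD, n = 5) in OB and 11.54 ± 0.14 (n = 5) in SEZ. The difference was -1.92 (SE 0.17, adjusted p = 1.01e-07), or 3.79-fold lower in OB. In cKO samples it was 5.26-fold lower in OB, with a difference of -2.39 (SE 0.22, adjusted p = 2.43e-07). From high to low, the group means ran SEZ cKO, SEZ control, OB control and OB cKO, and the neighbours within a tissue did not differ beyond their spread.

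Id3 (probe set 10509163), a target of BMP signalling also known from blood vessels, was lower in OB as well. It was at 7.91, 8.10, 7.62, 7.67 and 7.51 in OB controls 1 to 5 and at 8.25, 8.52, 8.30, 8.48 and 8.56 in SEZ controls 1 to 5. In cKO samples 1 to 3 it was at 7.88, 7.85 and 7.71 in OB and at 8.70, 8.29 and 8.41 in SEZ. The tissues did not overlap in either genotype, and the nearest values were 8.10 in OB and 8.25 in SEZ. The difference was -0.66 in controls (SE 0.11, adjusted p = 0.000137, 1.58-fold lower in OB) and -0.66 in cKO samples (SE 0.14, adjusted p = 0.00199).

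Id1 (probe set 10477169), a direct target often used as a readout of BMP signalling, was at 8.33, 8.84, 8.31, 8.55 and 8.38 in OB controls 1 to 5. In SEZ controls 1 to 5 it was at 8.77, 9, 8.70, 8.97 and 8.96. The ranges overlapped, since OB control 2 lay above 2 of the SEZ controls. The difference of -0.40 (SE 0.14, adjusted p = 0.04) passed narrowly. It did not pass without OB control 1, 3, 4 or 5 or SEZ control 2, 4 or 5, each left out singly, with adjusted p from 0.0549 to 0.0982. Without SEZ controls 2 and 4 together, it was -0.33 (adjusted p = 0.19). In cKO samples 1 to 3, Id1 was at 8.47, 8.60 and 8.21 in OB and at 9.30, 8.83 and 8.46 in SEZ. That difference of -0.44 did not pass (SE 0.18, adjusted p = 0.0923), and it was -0.64 without SEZ cKO replicate 3 (adjusted p = 0.0128).

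Id2 (probe set 10399691), known from bulb neurons as well as from glia, went the opposite way to Id1, Id3 and Id4. It was at 12.36, 12.52, 12.48, 12.32 and 12.35 in OB controls 1 to 5 and at 11.62, 11.84, 11.56, 11.71 and 11.87 in SEZ controls 1 to 5. In cKO samples 1 to 3 it was at 12.41, 12.45 and 11.97 in OB and at 11.81, 11.67 and 11.29 in SEZ. All OB arrays lay above all SEZ arrays, the closest being OB cKO replicate 3. Id2 was 1.61-fold higher in OB in both genotypes, with differences of 0.69 in controls (SE 0.11, adjusted p = 8.23e-05) and 0.69 in cKO samples (SE 0.14, adjusted p = 0.00131). In each tissue, cKO replicate 3 was the lowest of the 8 arrays.

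Nog (probe set 10389752), the gene of the antagonist noggin, was the member with the second smallest adjusted p between tissues in controls. It was at 8.69, 8.52, 8.84, 8.85 and 8.52 in OB controls 1 to 5 and at 7.97, 7.87, 7.93, 7.79 and 7.85 in SEZ controls 1 to 5. The cKO samples 1 to 3 were at 8.49, 8.83 and 8.64 in OB and at 7.99, 7.90 and 8.10 in SEZ. No OB array overlapped the SEZ arrays. The difference was 0.80 in controls (SE 0.08, adjusted p = 7.43e-07), or 1.75-fold, and 0.66 in cKO samples (SE 0.11, adjusted p = 0.000179). Noggin is best known in this niche from ependymal cells. Of 10 ependymal markers, 8 were lower in OB controls and 2 higher. Their mean level was 6.95 to 7.01 in OB controls and 7.40 to 7.78 in SEZ controls. Which cells held the Nog RNA was not tested. Chrd (probe set 10434528), chordin, was at 7.42 to 7.74 in OB controls and 7.26 to 7.70 in SEZ controls, with an OB minus SEZ difference of 0.08 (95% interval -0.12 to 0.28, adjusted p = 0.63). In cKO samples that difference was 0.15 (-0.11 to 0.41).

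The ligand genes were less even. Bmp4 (probe set 10419261), whose protein is made in the niche and by committed oligodendrocyte progenitors, was at 8.49, 8.40, 8.62, 8.24 and 8.53 in OB controls 1 to 5. It was at 8.10, 8.01, 8.003, 7.96 and 8.36 in SEZ controls 1 to 5. SEZ control 5, the control labelled Brg1+/+, lay within the OB range and the other 4 below it. The difference of 0.37 (SE 0.11, adjusted p = 0.0204) did not pass without OB control 3 (0.33, adjusted p = 0.0571) or SEZ control 4 (0.34, adjusted p = 0.053). Without SEZ controls 2 and 4 together it was 0.30 (adjusted p = 0.131). In cKO samples 1 to 3, Bmp4 was at 8.66, 8.16 and 8.10 in OB and at 8.22, 8.10 and 7.87 in SEZ, a difference of 0.24 that did not pass (95% interval -0.07 to 0.55, adjusted p = 0.277).

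Bmp7 (probe set 10490129), a ligand also known from the meninges, spread widely in OB. It was at 9.61, 9.73, 9.24, 8.75 and 8.36 in OB controls 1 to 5 and at 9.93, 8.88 and 8.88 in OB cKO samples 1 to 3. In SEZ it stayed between 8.53 and 8.89 in controls and between 8.65 and 9.24 in cKO samples. Its SD within groups, pooled over the 4 groups, was 0.44, larger than that of 98.9% of genes. The OB minus SEZ difference of 0.43 in controls did not pass (95% interval -0.08 to 0.95, adjusted p = 0.227), nor did 0.31 in cKO samples (-0.35 to 0.98), which was -0.0343 without OB cKO replicate 1. Without OB control 5 the difference in controls was 0.63 (adjusted p = 0.0492).

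The receptor gene Bmpr1a (probe set 10418927) had the same mean, 10.65, in both control tissues, with SDs of 0.22 in OB and 0.20 in SEZ. Its OB minus SEZ difference had a 95% interval of -0.23 to 0.23. Smad6 (probe set 10594418), the inhibitory Smad that BMP signalling itself induces, was at 6.80 to 7.04 in OB controls and 6.999 to 7.504 in SEZ controls. The Smad6 difference of -0.24 did not pass (SE 0.09, adjusted p = 0.0612). Leaving out SEZ control 2 (-0.28, adjusted p = 0.0429), SEZ controls 2 and 4 (-0.33, adjusted p = 0.0293) or SEZ cKO replicate 3 (adjusted p = 0.049) made it pass. In cKO samples Smad6 was at 6.95 to 7.02 in OB and 7.08 to 7.43 in SEZ. Those ranges did not overlap, which held for 5 members and for 33.3% of all genes in that comparison (14.3% higher and 19% lower in OB), but the Smad6 difference of -0.28 did not pass (SE 0.12, adjusted p = 0.102). Leaving out SEZ cKO replicate 3 (-0.38, adjusted p = 0.0396) or SEZ control 1 (adjusted p = 0.0301) made it pass. In controls the tissue ranges of 4 members (Nog, Id2, Id3 and Id4) were apart, against 21.9% of all genes (9.93% higher and 11.9% lower).

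**Figure D2:**
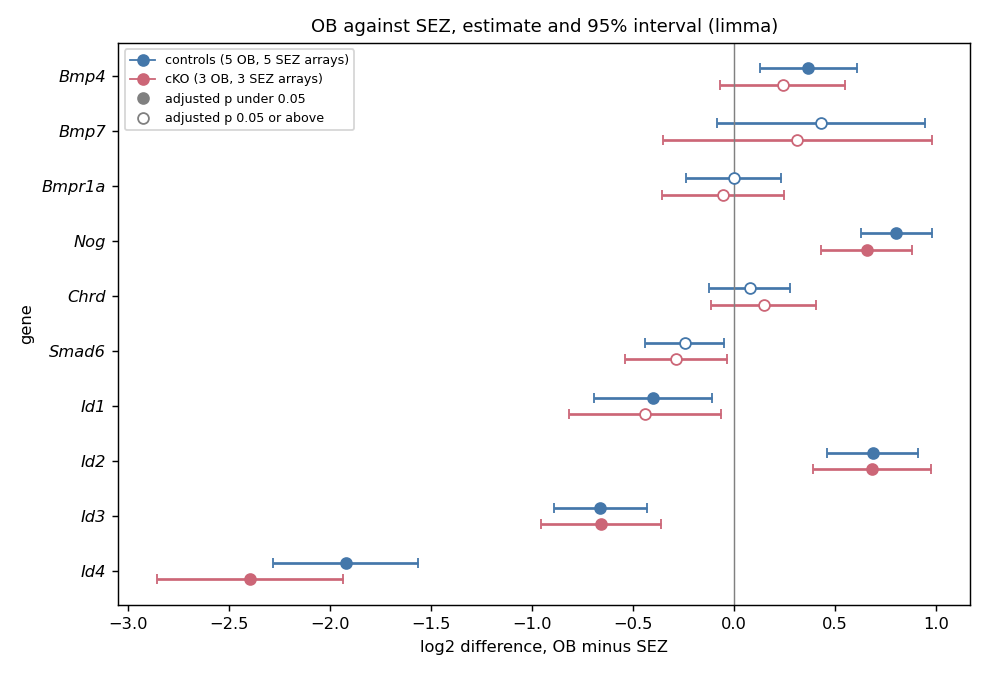
Estimated log2 difference between OB and SEZ for each member with its 95% interval, in controls and in cKO samples; filled symbols have an adjusted p under 0.05. Id4 (-1.92 and -2.39) and Id3 lie left of 0 and Id2 and Nog right of 0 in both genotypes, and Id1 and Bmp4 are filled for controls alone.

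No member was called between cKO and control samples. In OB, 0 of 10 members passed in limma, where 0.0451% of all genes did, and 0 had an unadjusted p under 0.05, against 3.51% of all genes. In SEZ, 0 of 10 passed, as did 0% of all genes, and 0 had an unadjusted p under 0.05, against 2.47%. The ranges of cKO and control samples overlapped for all 10 members in both tissues, while they were apart for 2.53% of all genes in OB (0.958% higher and 1.57% lower) and 2% in SEZ (0.943% higher and 1.05% lower). Adjusted p was 1 after rounding for every member. The median difference over the members was -0.04 in OB and 0.02 in SEZ, and over all genes -0.005 and 0.004.

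The estimate farthest from 0 was that of Id4 in OB, at -0.40 (95% interval -0.82 to 0.01, unadjusted p = 0.054). Of the 3 cKO values, 2 lay within the control range, and OB cKO replicate 1, at 8.69, lay below it. That range reached down to 9.01 through OB control 3 alone. The next control was at 9.67, and OB cKO replicate 3, at 9.29, lay between these 2 controls. Without OB cKO replicate 1 the estimate was smaller in size, at -0.14. Over all arrays left out singly, it ran from -0.63 to -0.14. In SEZ, Id4 was at 0.07 (-0.35 to 0.48), and the difference between the tissue effects, SEZ minus OB, was 0.47 (-0.11 to 1.05, unadjusted p = 0.106). The other Id genes had cKO minus control estimates near 0. Id1 was at -0.05 (-0.39 to 0.28) in OB and -0.01 (-0.35 to 0.32) in SEZ. Id2 was at -0.13 in both, with intervals from -0.39 to 0.13, and Id3 at 0.05 in both, with intervals from -0.21 to 0.32 in OB and to 0.31 in SEZ.

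For the ligands, Bmp4 was at -0.15 (-0.43 to 0.12) in OB and -0.02 (-0.30 to 0.25) in SEZ, cKO minus control. Bmp7 had the widest intervals, at 0.09 (-0.50 to 0.69) in OB and 0.21 (-0.38 to 0.81) in SEZ. The receptor gene Bmpr1a was at -0.17 (-0.45 to 0.10) and -0.12 (-0.39 to 0.15). Among the inhibitors, Nog was at -0.03 (-0.23 to 0.17) and 0.11 (-0.09 to 0.32), Chrd at 0.01 (-0.22 to 0.24) and -0.06 (-0.29 to 0.17), and Smad6 at 0.08 (-0.14 to 0.31) and 0.12 (-0.10 to 0.35). These intervals leave room for changes of about the sizes at their ends, so they do not show that the levels were equal. The difference between the tissue effects passed for 0 members in limma, against 0.00502% of all genes, with 0 members at an unadjusted p under 0.05, against 1.48%. Neuroblast markers stood apart by genotype: the mean over 12 of them was 10.06 to 10.29 in OB cKO and 10.64 to 10.93 in OB control samples. In SEZ it was 9.52 to 9.56 in cKO and 9.65 to 9.97 in control samples. Of these 12 markers, 4 were lower in OB cKO and 0 passed in SEZ. The mean of 11 markers of dividing progenitors was 7.08 to 7.20 in SEZ cKO and 7.41 to 7.54 in SEZ control samples, with 11 of 11 estimates below 0 (median -0.26) and 0 passing in limma. In OB it was 6.518 to 6.559 and 6.503 to 6.591. The part of such shifts in the member levels was not tested.

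**Figure D3:**
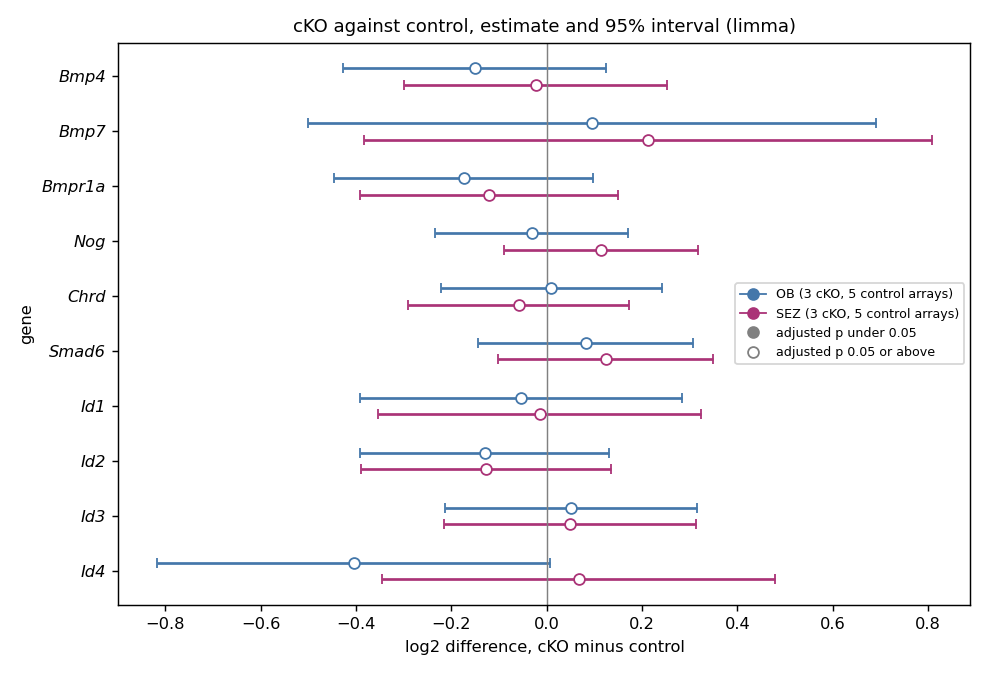
Estimated log2 difference between cKO and control samples for each member with its 95% interval, in OB and in SEZ; all symbols are open because no adjusted p was under 0.05. All 20 intervals include 0, and Id4 in OB, at -0.40, lies farthest from it.

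Other genes of the pathway were taken in 6 lists. Of 60 measured genes, in controls 14 were higher in OB (12.6% of all genes) and 15 lower (14.9% of all genes), and 31 did not pass. In cKO samples 11 were higher (10% of all genes) and 12 lower (13.1% of all genes), and 37 did not pass. Between cKO and control samples, 0 of 60 passed in limma in either tissue. Of the 29 genes called in controls, 21 were called in cKO samples too (72.4% of the 29 and 91.3% of the 23), all in the same direction.

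Among 11 measured antagonists, 4 were higher and 2 lower in OB in controls, where 12.6% of all genes were higher and 14.9% lower. Chrdl1, a relative of chordin, was 3.62-fold higher in OB controls (9.59 against 7.73, log2 difference 1.86, SE 0.14, adjusted p = 1.54e-08), and Bambi, a decoy receptor, was 3.25-fold higher (9.42 against 7.72, adjusted p = 1.95e-11). Grem1, gremlin, was 1.76-fold higher (adjusted p = 0.000228). In cKO samples the same 3 had differences of 1.51, 1.49 and 0.94, and all passed. The fourth that was higher in controls was Nbl1 (0.31, adjusted p = 0.0213), and Twsg1 (-0.39) and Bmper (-0.22) were lower.

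Of 12 further ligands, 3 were higher and 2 lower in OB in controls (12.6% and 14.9% of all genes, as for the receptors below). Bmp3, an atypical ligand that opposes the others, was higher in OB by 0.91 (SE 0.14, adjusted p = 9.2e-05), and Bmp5 by 0.59 (adjusted p = 0.00929). Bmp2 was lower by a difference of -0.75 (adjusted p = 0.0017). Of 9 receptors and co-receptors, 2 were higher and 5 lower. Acvr1, a type I receptor, was at 0.79 (adjusted p = 4.11e-07) and the co-receptor Rgmb at 0.68 (adjusted p = 1.72e-05). Acvrl1, the type I receptor of blood vessels, was at -0.69 in controls (adjusted p = 2.72e-05) and -0.99 in cKO samples.

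Among 11 Smads and their regulators, 2 were higher and 3 lower in OB in controls (12.6% and 14.9% of all genes, as for the lists after it). With so few genes per list, these counts describe the lists only. Skil, a repressor of Smads, was 2.05-fold lower (log2 difference -1.04, adjusted p = 1.46e-06) and the ubiquitin ligase gene Smurf1 1.72-fold lower (adjusted p = 5.74e-08). Smad9, the third of the BMP Smads, was higher by 0.51 (adjusted p = 3.02e-05). Of 8 other target genes, Hey1 (-0.68) and Prrx1 (-0.42) were lower in OB controls, and Atoh8 (-0.31, adjusted p = 0.00903) was lower in OB among cKO samples, with 0 higher in either. Of 9 helix-loop-helix genes that Id proteins or their partners meet, 3 were higher and 1 lower in controls. Neurod1 was 4.17-fold higher in OB (7.39 against 5.33, adjusted p = 1.07e-08), and the E protein genes Tcf4 (0.88) and Tcf12 (0.36) were higher too. Olig2 was lower, at -0.32 (adjusted p = 0.0357).

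**Figure D4:**
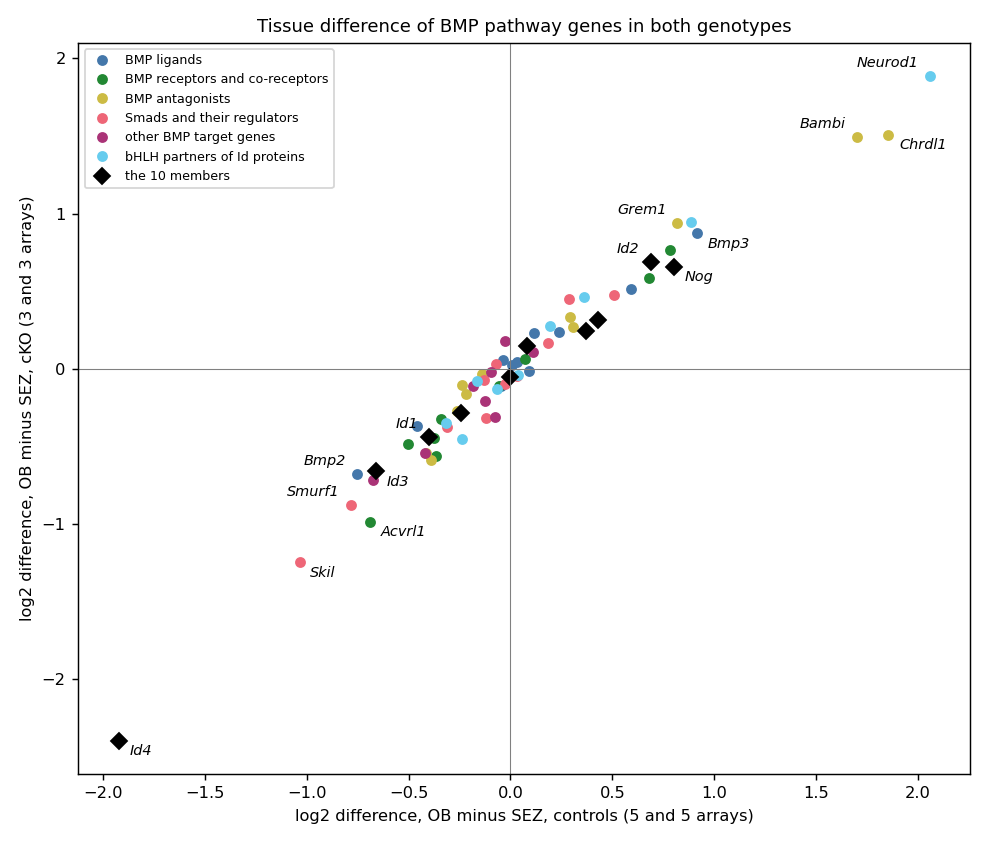
Log2 difference between OB and SEZ in controls (horizontal axis) and in cKO samples (vertical axis) for 60 further pathway genes, coloured by list, and the 10 members (black diamonds); the 2 axes share no arrays. Id4 lies alone at the lower left, and Neurod1, Chrdl1 and Bambi lie at the upper right.

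Between cKO and control samples, the pathway genes with the smallest unadjusted p of each list did not pass, all with an adjusted p of 1 after rounding. In OB these were Gdf2 (0.13), Bmpr1b (-0.19), Bambi (-0.18), Smurf2 (-0.24), Prrx1 (-0.19) and Olig1 (-0.22). In SEZ they were Gdf7 (0.15), Acvrl1 (0.25), Chrdl1 (0.16), Tob1 (-0.17), Atoh8 (0.20) and Tcf12 (-0.22).

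Within groups, several members moved with markers of other cells. After each group's mean was removed, Bmp7 varied with the mean of 10 meningeal fibroblast markers, with r = 0.93 (Spearman rho 0.88) over 16 arrays, 0.96 over the 8 OB arrays and 0.63 over the 8 SEZ arrays. Without the 2 arrays farthest from the median on the marker axis, r was 0.88. The 10 markers spread unevenly: in OB controls the SD was 1.13 for Dcn and 0.89 for Slc6a13, but 0.15 for Col1a1. The 3 OB arrays with the highest marker means, control replicates 1 (8.04) and 2 (8.05) and cKO replicate 1 (8.22), were also the 3 with the most Bmp7. Marker means ranged from 7.18 to 8.05 in OB controls, 7.37 to 8.22 in OB cKO, 7.28 to 7.47 in SEZ controls and, among SEZ cKO samples, 7.30 to 7.53, and 0 of 10 markers differed between the tissues in controls. Bmp7 varied with the mean of 11 endothelial markers as well (r = 0.88, rho 0.82, 0.92 in OB and 0.52 in SEZ, 0.81 without the 2 farthest arrays). The parts of these cells in the spread of Bmp7 were not tested.

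Id3 varied with the mean of 11 endothelial markers (r = 0.83, rho 0.72, 0.93 in OB and 0.72 in SEZ, 0.78 without the 2 farthest arrays). That mean was 8.30 to 8.65 in OB controls and 8.65 to 8.72 in SEZ controls, with 6 of 11 markers lower in OB and 0 higher. In cKO samples it was 8.33 to 8.55 in OB and 8.65 to 8.77 in SEZ. Id1 varied with the mean of 12 markers of astrocytes and neural stem cells (r = 0.92, rho 0.92, 0.93 in OB and 0.91 in SEZ, 0.86 without the 2 farthest), and Id2 did so as well (r = 0.87, rho 0.84, 0.75 in OB and 0.96 in SEZ, 0.85 without the 2 farthest). That mean was 10.49 to 10.87 in OB controls and 10.60 to 10.90 in SEZ controls, with 1 of 12 markers higher and 2 lower in OB. In cKO samples it was 10.33 to 10.69 in OB and 10.38 to 10.84 in SEZ. The list includes Slc1a3, which was low in both cKO replicates 3. Without it, a check added after the data were seen, r over the other 11 markers was 0.84 for Id1 (rho 0.87, 0.89 in OB and 0.80 in SEZ) and 0.66 for Id2 (rho 0.76, 0.40 in OB and 0.86 in SEZ). The lowest arrays in Id1 and Id2 were cKO replicates 3 in both tissues. Their 11-marker means, 10.46 in OB and 10.58 in SEZ, lay within the control ranges of 10.38 to 10.74 and 10.52 to 10.82. Id4 varied most with the microglial markers (r = 0.78, rho 0.78, 0.84 in OB and 0.80 in SEZ, 0.70 without the 2 farthest), of which 5 of 9 were lower and 0 higher in OB controls. Their mean was 8.81 to 9.09 in OB controls, 8.60 to 8.999 in OB cKO, 9.06 to 9.40 in SEZ controls and, among SEZ cKO samples, 9.15 to 9.33. Chrd varied with the striatal (r = 0.83) and ependymal markers (r = 0.80) and ran against those of oligodendrocyte progenitors (r = -0.80). Id2 ran against the striatal markers (r = -0.87), and so did Id1 (r = -0.78). Id1 also varied with the oligodendrocyte progenitor markers (r = 0.77), so its relation to the astrocyte markers was not particular to them. All these were picked for their size from 150 correlations of members with marker lists, and all arrays share 1 normalisation. The parts of the cell types in the member levels and tissue differences were not tested.

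**Figure D5:**
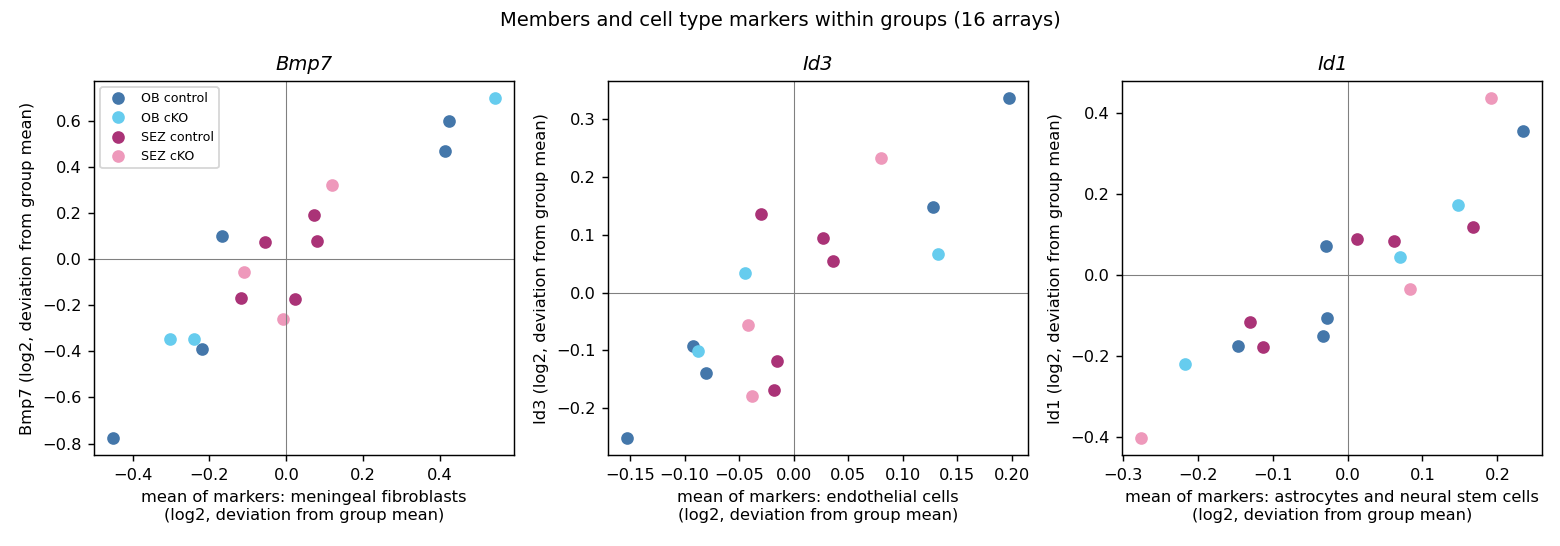
Deviation of Bmp7, Id3 and Id1 from their group means (vertical axes, log2) against the deviation of the mean of the markers of 1 cell type (horizontal axes, log2), 1 point per array, coloured by group. Bmp7 follows the meningeal fibroblast markers mainly through the OB arrays, and Id1 follows the astrocyte markers in both tissues.

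Among the members themselves, the closest pair within groups was Id1 and Id2, with r = 0.80 (rho 0.82, 0.63 in OB and 0.92 in SEZ), although their levels differed between the tissues in opposite directions. Bmp7 and Id3 had r = 0.72 (rho 0.65, 0.79 in OB and 0.68 in SEZ) and Id1 and Id3 r = 0.70 (rho 0.59, 0.67 in OB and 0.75 in SEZ). Some members also moved with the array median, itself a property of the array. There r was 0.80 for Chrd, -0.74 for Id1, -0.69 for Bmpr1a, -0.60 for Id2 and -0.56 for Id4. The strongest component of the within-group variation, with 41% of the variance, had r = -0.92 with the array median. With this component, r was -0.83 for Chrd, 0.76 for Bmpr1a, 0.70 for Id1, 0.64 for Id4 and 0.59 for Id2. Its part in the relations of members and markers was not tested.

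The genes whose deviations were most like each member's were taken as the 3 highest r among 19937 genes over 16 arrays, so that high values are partly a matter of choice. For Id1 they were Slc2a1 (0.93), Aldoc (0.91) and Synm (0.91), and for Id2 Cd34 (0.95), Nxt2 (0.93) and Cyb5a (0.92). For Id3 they were Acox3 (0.90), Hspb8 (0.89) and Sat1 (0.88), and for Id4 Usp8 (0.97), Pygb (0.92) and Pcp4 (0.91). Bmp7 was most like Sntb1 (0.96), Serpinf1 (0.95) and Hey2 (0.95), and Bmp4 most like Ap3m1 (0.90), Srgn (0.86) and Pop4 (0.86). Bmpr1a was most like Opa1 (0.94), Bloc1s4 (0.91) and Mcm8 (0.90), and Nog most like Lurap1 (0.90), Hdac5 (0.89) and Olfr944 (0.85). For Chrd they were 1600012P17Rik (0.92), Olfr68 (0.92) and 4930444P10Rik (0.90), and for Smad6 Ly6a2 (0.92), Tekt1 (0.90) and 1700069L16Rik (0.89). Mean levels of Olfr944 (4.66), Olfr68 (5.22) and Ly6a2 (5.59) were low against a median of 8.11 over all genes, and low levels are uncertain.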

How the data were processed

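RNA of 16 mouse tissue samples was measured on 1-colour Affymetrix arrays. The deposited values are log2 expression per probe set, made with RMA (background correction, quantile normalisation, summarisation) in Affymetrix Expression Console 1.2, per the submitters' processing notes. No detection calls were used here, and at low levels RMA values understate differences. Of 35556 probe sets, 21789 had 1 gene symbol, 1621 several and 12146 none, and symbols were checked through RefSeq identifiers (GRCm38.p6). The brightest probe set stood for a gene, which left 19938 genes. All arrays were fitted in limma 3.58.1 (R 4.3.3) with 4 groups and no covariate, with 12 residual and 4.34 prior degrees of freedom. Tests were two-sided and adjusted by Benjamini-Hochberg over all genes. The model was run on simulated data with independent noise. These lacked the shared within-group variation and any shared mice of the real arrays, so that run could not check for their effect.

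The labels call the samples biological replicates, and p-values rest on the spread between arrays within groups. Whether the OB and SEZ samples of 1 number came from the same mouse is not stated, and the tissue tests took them as independent. Members, lists, comparisons and alternatives were chosen with earlier results of these data known. The named-gene rule took all members, up to 3 passing genes per pathway list and comparison with the largest difference (otherwise the smallest p), up to 3 markers per list, and the 3 genes most like each member. Nbl1, Twsg1, Bmper and Olig2 were named beyond this rule, after their values were seen. Of 15 marker lists, those with the highest correlations or nearest to the tissue are described. Alternatives covered normalisation, filtering, weights, block, probe sets, threshold and arrays left out.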

Additional observations from a re-analysis of the deposited data

Results flagged for a closer look

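Of 20 control groups of 5 arrays checked (10 members in 2 tissues), 1 held a value far from the others, where chance flags about 1 in 20. It was Id4 in OB control replicate 3, at 9.01 against 9.67 for the nearest of the other 4, a gap of 0.75 of the group's range.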

How the results depend on the processing

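Over 29 settings (28 for the difference between tissue effects), 0 members were called between cKO and control samples, and Id2, Id3, Id4 and Nog were called between tissues in both genotypes under all 29. Members called between tissues ranged from 4 to 7 in controls and 4 to 6 in cKO samples. Besides the arrays named above, array weights (Bmp4 0.28, adjusted p = 0.0667) and centring (Id1 -0.38, adjusted p = 0.0507) ended calls in controls, and Smad6 passed under cyclic loess in controls (-0.26, adjusted p = 0.0263) and cKO samples (-0.32, adjusted p = 0.0393). Chrd and Smad6 had no value among genes above the median level. No threshold on signal over background was available, so low levels are uncertain.

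Genes called between cKO and control samples in OB numbered 9. They were 3 with only the groups compared, 5 with cyclic loess, 5 without SEZ controls 2 and 4, 2 without cKO 3 and 5 without cKO 1 of both tissues, and 2 to 9 with 1 array left out. The difference between tissue effects had 1 gene, 2 with array weights, 0 without SEZ controls 2 and 4, cKO 3 or cKO 1, and 0 to 2 with 1 array left out. Between tissues in cKO samples, 4614 genes became 2996 without cKO 1 of both tissues.

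The labels do not say that replicate numbers mark the same mouse, and the numbers were not taken as pairs, because OB and SEZ cKO replicates 1 had a residual correlation of -0.06. The other 7 of 8 same-number correlations were 0.17 to 0.57, and 3 of 8 arrays matched best with their own number. Some samples may thus share a mouse, but not all same-number samples did. Xist was at 6.08 in OB and 12.40 in SEZ cKO replicate 1, as in mice of different sex. Controls 5, which matched best with their own number (0.47), carried different genotype labels in OB and SEZ. With the replicate number as a fixed block, 5 genes were called in OB and 2 in SEZ, and the cKO minus control estimates of Chrd (-0.0407) and Bmp7 (-0.0558) in OB and Id1 (0.0086) in SEZ changed sign. Id1 between tissues in cKO samples passed with the fixed block (adjusted p = 0.0348) and with a random block (0.0453), and Smad6 in controls with the random block (0.04).

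Other changes of sign were all in differences that did not pass, and the cause was not tested. For cKO minus control in OB, these were with cyclic loess Chrd (-0.0199), without cKO 1 of both tissues Bmp7 (-0.25) and Nog (0.048) and without cKO 3 of both tissues Chrd (-0.0571), Id1 (0.056) and Id2 (0.0234). For cKO minus control in SEZ, these were with array weights Chrd (0.018), Id3 (-0.0288) and Id4 (-0.00291), without SEZ controls 2 and 4 Id1 (0.055), without cKO 1 of both tissues Chrd (0.0628) and Id3 (-0.0675) and without cKO 3 of both tissues Bmp4 (0.0754), Id1 (0.19) and Id2 (0.023). For the difference between tissue effects, these were with array weights Bmp4 (-0.0619), Bmp7 (-0.10), Bmpr1a (-0.0395), Chrd (0.00687), Id1 (-0.00599) and Id2 (-0.11) and with arrays centred on their medians Id2 (-0.00497). There they were also with cyclic loess Id2 (-0.0288) and Id3 (0.00147) and without SEZ controls 2 and 4 Smad6 (-0.0469) and Id3 (0.0479). Further ones were without cKO 1 of both tissues Chrd (0.0429), Smad6 (-0.0195), Id1 (-0.16) and Id2 (-0.0384) and without cKO 3 of both tissues Bmp7 (-0.028), Bmpr1a (-0.087) and Id2 (-0.0004). Between tissues in controls, these were without SEZ controls 2 and 4 Chrd (-0.00607). Between tissues in cKO samples, these were without cKO 3 of both tissues Bmpr1a (0.087).

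With 1 array left out, some ranges crossed 0. For cKO minus control in OB, they were Bmp7 -0.25 to 0.27, Chrd -0.0571 to 0.0674, Id1 -0.14 to 0.056, Id2 -0.21 to 0.0234, Id3 -0.0116 to 0.14 and Nog -0.12 to 0.048. For cKO minus control in SEZ, they were Bmp4 -0.10 to 0.0754, Chrd -0.13 to 0.0628, Id1 -0.23 to 0.19, Id2 -0.24 to 0.023 and Id3 -0.0675 to 0.14. Leaving out SEZ control 5, labelled Brg1+/+, changed the sign of Bmp4 (0.0451) and Id1 (0.00625) there. For the difference between tissue effects, they were Bmp7 -0.0567 to 0.47, Bmpr1a -0.0533 to 0.12, Chrd -0.14 to 0.0527, Id1 -0.18 to 0.24, Id2 -0.15 to 0.15, Id3 -0.12 to 0.087 and Smad6 -0.0337 to 0.14. Between tissues in cKO samples, they were Bmp7 -0.0343 to 0.49 and Bmpr1a -0.11 to 0.0533.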
